A study of Mus musculus with 18 samples.

Results

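The regions described here are stretches of H3K27ac in mouse cerebral cortex that also carried peaks of initiating RNA polymerase II and of H3K4me1. They were selected on the peak lists themselves. H3K27ac peaks of 3 animals were merged wherever they overlapped on chromosomes 1 to 19, and a region was taken if it was under 5000 bp wide and had H3K27ac, polymerase and H3K4me1 peaks from at least 2 libraries each. Of 83349 merged H3K27ac regions, 51119 were under 5000 bp with H3K27ac in 2 or 3 libraries, and 1254 of these (2.45%) met the whole rule. They are called triple-marked regions below.

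The tissue was frozen cerebral cortex of 3 wild-type C57BL/6J females aged 14 weeks, numbered 5, 7 and 9 in the labels, with no treatment and no other genotype. Each animal gave 5 chromatin immunoprecipitation libraries, one each for H3K27ac, H3K4me1, RNA polymerase II phosphorylated on serine 5 (PolII_S5P), MBD3 and TDG. Inputs of the 3 animals were not analysed here. Whole cortex mixes neurons, glia and vessel cells, so a mark carried by few cells and a weak mark carried by many cannot be told apart. Other classes of the same 51119 regions served for comparison. These were 3963 polymerase-only regions (polymerase in 2 or 3 libraries, H3K4me1 in none), 10760 H3K4me1-only regions (the reverse) and 21088 regions with neither, while 14054 mixed regions fell between the classes.

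H3K27ac is an acetyl mark of active promoters and active enhancers. H3K4me1 is typical of enhancers and of the flanks of promoters, whereas the serine 5 form of the polymerase accumulates where transcription begins and in the first stretch of a gene. MBD3 belongs to NuRD, a complex that joins nucleosome remodelling with histone deacetylation. TDG removes thymine from mismatches with guanine and removes oxidised methylcytosine, a step of active DNA demethylation.

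The libraries differed in how many peaks they listed. On chromosomes 1 to 19 the H3K27ac lists held 57846 to 67877 peaks, the H3K4me1 lists 22555 to 45575, the MBD3 lists 38821 to 61187 and the TDG lists 125 to 934. The polymerase list of animal 5 stood apart with 4351 peaks, against 19509 in animal 7 and 12526 in animal 9. As a result 455 triple-marked regions had a polymerase peak in animal 5, 1239 in animal 7 and 1216 in animal 9. H3K4me1 peaks were present at 1111, 1208 and 877 of them in animals 5, 7 and 9. H3K27ac was found in all 3 libraries at 1139 regions (90.8%), H3K4me1 at 688 (54.9%) and polymerase at 402 (32.1%), and 194 regions (15.5%) had all 3 marks in all 3 animals. Without the polymerase list of animal 5, and with polymerase then asked of both other lists, 1201 regions met the rule.

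Triple-marked regions were broad for their class limit. Their width ran from 290 to 4990 bp with a median of 1959 bp, and the middle of the distribution spanned 1272 bp (25th percentile) to 2767 bp (75th percentile). The median was 1391 bp for polymerase-only regions, 1356 bp for H3K4me1-only regions and 783 bp for regions with neither. Regions under 1000 bp were 212 of the triple-marked set (16.9%) and 64.2% of the regions with neither. These widths come from the H3K27ac lists that chose the regions and are given without a test.

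Their H3K27ac peaks ranked high in the lists, as did those of polymerase-only regions in animals 5 and 7. The fold enrichment of a peak is the authors' own value, and the strongest peak in a region was read as a percentile of its own list. The median H3K27ac fold was 5.60, 5.50 and 4.74 in animals 5, 7 and 9, at the 82.1, 80.9 and 74.6 percentiles. Polymerase-only regions lay at 83.9, 80.7 and 61.7 and H3K4me1-only regions at 66.0, 65.8 and 69.0. Polymerase peaks had medians of 4.06, 4.84 and 4.21, at the 57.2, 70.9 and 62.4 percentiles, against 38.1, 70.5 and 44.2 in polymerase-only regions. H3K4me1 peaks had medians of 3.40, 3.32 and 3.46, at the 71.5, 74.2 and 69.2 percentiles. In H3K4me1-only regions the H3K4me1 percentiles were 60.7, 64.1 and 60.6. Across the 1254 regions, width and H3K27ac percentile had a Spearman rho of 0.55, while width had -0.06 with the polymerase percentile and -0.07 with that of H3K4me1. The polymerase and H3K4me1 percentiles had a rho of 0.20 with each other. These are descriptions over regions that share libraries and often a locus.

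The regions with the highest H3K27ac percentile over 3 animals were well above those medians. At chr2:6888528-6891600 (3073 bp, build mm39) the H3K27ac fold was 18.9, 18.7 and 20.7 in animals 5, 7 and 9. At chr12:52745058-52748492 it was 18.7, 22.1 and 16.1. The next in order were chr15:93721959-93724717, with 14.5, 16.1 and 16.1, a region of 2373 bp on chromosome 18, with 14.2, 16.7 and 16.4, and chr19:34583951-34586026, with 14.1, 16.1 and 15.5. These 5 were 2076 to 3435 bp wide, and each was listed for MBD3 in 2 or 3 animals. Of all 1254 regions, 141 had MBD3 in 2 animals and 753 in 3. In the 251 with the strongest H3K27ac, 92.4%, 96.0% and 88.05% had MBD3 in animals 5, 7 and 9. The region on chromosome 18 had a TDG peak in animal 9, with a fold of 3.93, and the other 4 had none. Of all 1254 regions, 95.8% had no TDG peak.

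The strongest polymerase site lay at chr3:96174952-96177875, with polymerase fold values of 10.1 in animal 5, 32.7 in animal 7 and 18.9 in animal 9. Another of the 5 strongest, chr3:96169035-96172423, started less than 10 kb from it and had values of 10.8, 14.2 and 12.6. The others were chr17:24747214-24749812 (10.3, 14.0 and 16.3), chr9:78387224-78390346 (10.3, 17.7 and 11.6) and chr7:59507794-59508350 (10.9, 12.2 and 10.8). The last of these is narrow, at 557 bp, and had an MBD3 peak in animal 7 alone, while the remaining 4 had MBD3 in 2 or 3 animals. Of all 1254 regions, 123 had MBD3 in 1 animal, 141 in 2 and 753 in 3.

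The strongest H3K4me1 sites were grouped on chromosome 8. Of the 5 regions with the highest H3K4me1 percentile, 4 lay between 20022075 and 21121596 on that chromosome, an interval of 1099522 bp that held 12 triple-marked regions. At chr8:20705877-20706908 the H3K4me1 fold was 9.01, 7.98 and 7.78 in animals 5, 7 and 9, and at chr8:20151769-20152845 it was 7.09, 9.33 and 8.66. The 12 regions were narrow, 373 to 1077 bp with a median of 469 bp. Polymerase was found in all 3 libraries at 10 of them and H3K4me1 at 11. MBD3 was listed at 3, 5 and 4 of the 12 in animals 5, 7 and 9, and TDG at 3, 0 and 2. Of all 1254 regions, 73.0%, 76.9% and 62.6% had MBD3 and 1.28%, 0.638% and 3.35% had TDG. The narrowest 251 of them (290 to 1121 bp) had MBD3 in 33.9%, 43.8% and 24.7%, and TDG at 11, 5 and 8. This interval was singled out after its values were seen.

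Polymerase and H3K4me1 mostly peaked apart from each other at these regions. A peak needed only 1 bp of overlap with a region, so its summit could lie outside it. In animals whose own lists had both peaks, the distance between the summits of the strongest peak of each had a median of 741 bp in animal 5 (409 regions), 808 bp in animal 7 (1193) and 772 bp in animal 9 (851). The summits lay within 200 bp of each other in 24.4%, 17.6% and 19.04% of these regions. The polymerase summit was the closer one to the H3K27ac summit, with median distances of 186, 233 and 262 bp, against 804, 751 and 716 bp for the H3K4me1 summit. The distances are descriptions of the lists that chose the regions.

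**Figure D1:**
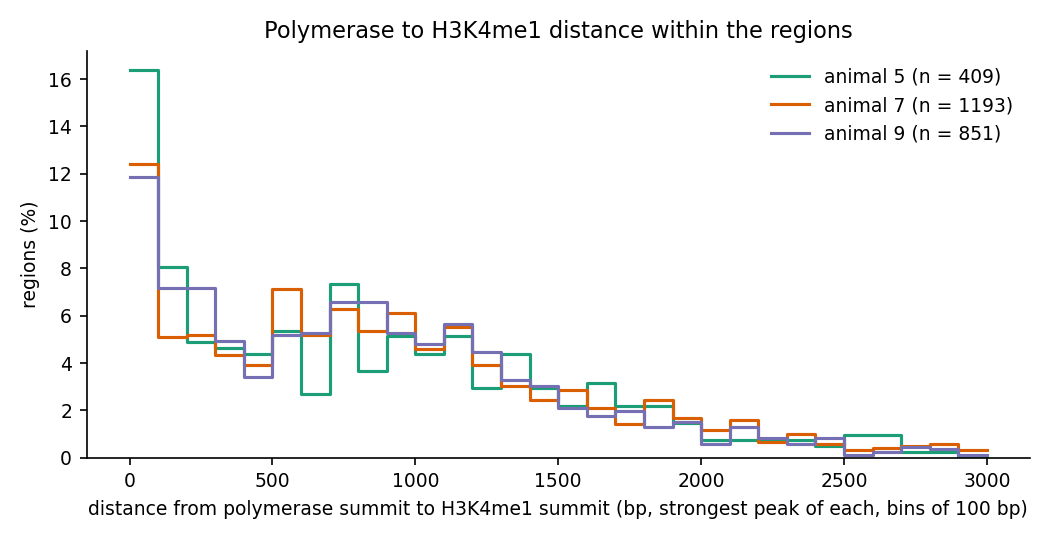
Distance in bp between the summit of the strongest PolII_S5P peak and that of the strongest H3K4me1 peak overlapping each triple-marked region (horizontal axis, bins of 100 bp, shown up to 3000 bp) against the percentage of regions (vertical axis), with 1 line per animal. A summit may lie outside the region. The first bin holds 16.4%, 12.4% and 11.9% of the regions in animals 5, 7 and 9, and a broad second rise follows near the medians of 741 to 808 bp; 2, 20 and 10 regions lie beyond the axis.

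The regions fell into those where an H3K4me1 peak covered the polymerase summit and those where it lay beside it. An H3K4me1 peak covered the summit in 155 of 409 regions in animal 5 (37.9%), 498 of 1193 in animal 7 (41.7%) and 322 of 851 in animal 9 (37.8%), a mean of 39.2% ± 2.24 (SD, n = 3). H3K4me1 lay on 1 side only in 54.3%, 50.2% and 56.5%, and on both sides with the summit free in 7.82%, 8.05% and 5.64%. Regions with a covered summit were narrower, with median widths of 1222, 1576 and 1550 bp, against 2216, 2179 and 2146 bp where H3K4me1 lay beside it.

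MBD3 was common at triple-marked regions. An MBD3 peak was found at 915 regions in animal 5 (73.0%), 964 in animal 7 (76.9%) and 785 in animal 9 (62.6%). Of all 51119 regions, 54.2% had an MBD3 peak in animal 5, 57.6% in animal 7 and 41.9% in animal 9. MBD3 was present in all 3 animals at 753 triple-marked regions (60.1%, 95% exact Clopper-Pearson interval 57.3 to 62.8), against 38.2% of all 51119 regions. No library had it at 237 (18.9%), 1 library at 123 and 2 libraries at 141. Such intervals cover counting error only, because regions are not replicates and neighbours share a locus.

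The share of triple-marked regions with MBD3 lay between those of the classes with 1 mark. It was 70.8% ± 7.38 (SD, n = 3 animals). This share covers unlike regions. Split after the values were seen, it was 84.3% ± 6.52 where no other triple-marked region lay within 10 kb. In runs of 5 or more it was 37.0% ± 9.27. Polymerase-only regions had 95.5%, 95.8% and 79.0% in animals 5, 7 and 9 (90.1% ± 9.63), and H3K4me1-only regions had 55.4%, 61.2% and 44.6% (53.8% ± 8.45). Regions with neither mark had 38.3% ± 7.98. Within each animal the triple-marked share minus the polymerase-only share was -22.6, -18.96 and -16.4 percentage points, a mean of -19.3 ± 3.10 (SD, n = 3). Minus the H3K4me1-only share it was 17.5, 15.6 and 18.01 points, a mean of 17.1 ± 1.26, and minus all 49865 other regions 20.0 ± 1.03. Animal 9 was lowest in each class, and the order of the 3 classes was the same in 3 of 3 animals. The differences exceeded their spread between animals, but a two-sided exact permutation test over 3 paired animals cannot go below 0.25, and each of these 3 comparisons gave p = 0.25 (0.31 after Benjamini-Hochberg adjustment over 11 tests). Counting only the first region of a class in each 100 kb brought the difference from polymerase-only regions to -8.13 points. That from H3K4me1-only regions was 6.59 points without animal 7, 9.93 with lists of equal length and 6.04 when the 3 marks were asked of all 3 libraries. That from all other regions was 10.1, 11.7 and 8.55 points under the same 3 settings and 10.7 with widths of at least 1000 bp.

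**Figure D2:**
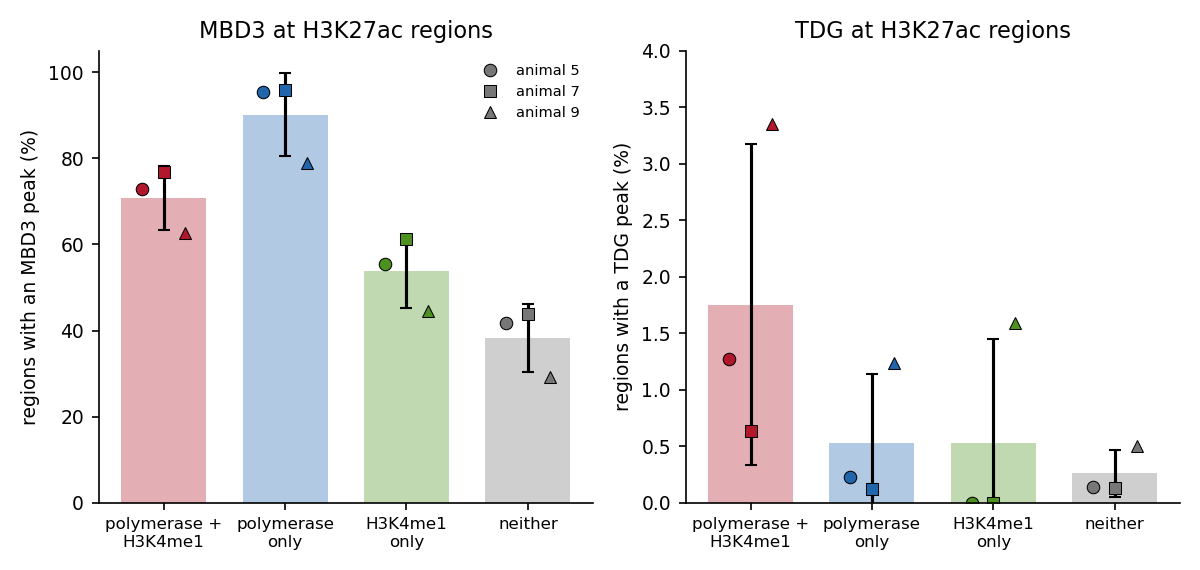
Percentage of H3K27ac regions with an MBD3 peak (left) and with a TDG peak (right, another scale) in 4 classes of region, with points for animals 5, 7 and 9 and bars for the mean ± SD over the 3 animals; SD bars are not drawn below 0. MBD3 at regions with polymerase and H3K4me1 (70.8%) sits between polymerase-only (90.1%) and H3K4me1-only regions (53.8%) in each animal, and TDG is highest at regions with both marks in each animal.

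Wide regions had MBD3 more often. In 5 width classes of equal number, from the narrowest (290 to 1121 bp) to the widest (3061 to 4990 bp), the share with MBD3 went from 34.1% ± 9.57 to 91.2% ± 4.44 (SD, n = 3). In animal 5 it was 33.9% at the narrow end and 92.0% at the wide end, in animal 7 43.8% and 95.2%, and in animal 9 24.7% and 86.5%. Polymerase-only regions of the narrowest width class had MBD3 in 83.6% ± 15.9, and H3K4me1-only regions in 31.9% ± 7.74. In the widest class the 2 were at 97.3% ± 1.05 and 87.8% ± 5.87. The number of MBD3 libraries had a Spearman rho of 0.48 with width and 0.49 with the H3K27ac percentile over the 1254 regions, and -0.19 with the polymerase percentile. By strength of H3K27ac, the weakest of 5 equal classes had MBD3 in 39.2% ± 10.3 and the strongest in 92.2% ± 3.99.

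**Figure D3:**
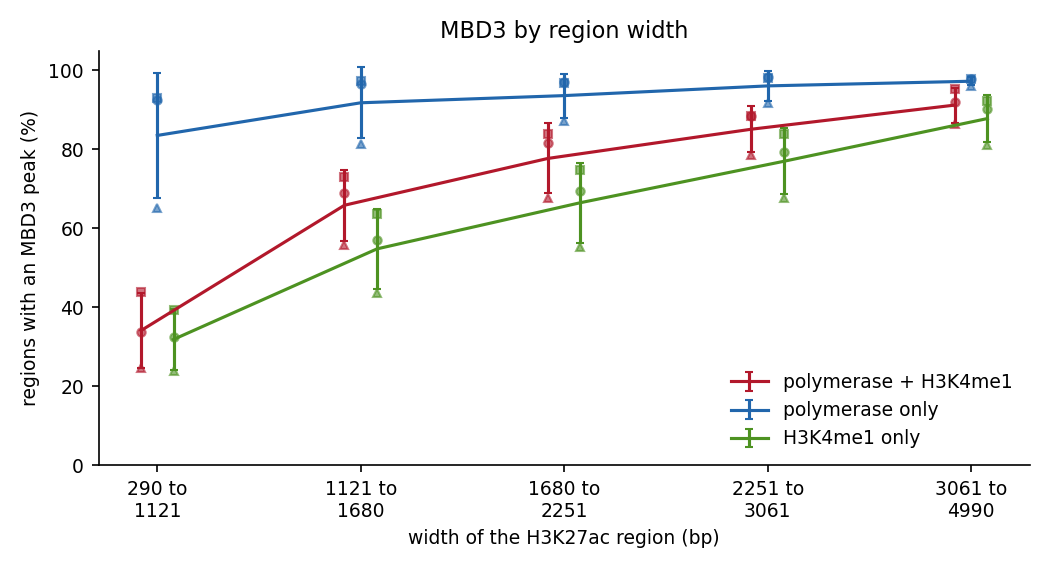
Percentage of regions with an MBD3 peak (vertical axis) in 5 width classes of the H3K27ac region (horizontal axis, bp), as mean ± SD over 3 animals with a point per animal. Triple-marked regions (red) go from 34.1% to 91.2%, close to H3K4me1-only regions (green, 31.9% to 87.8%) at both ends. Between the ends they are higher, with 65.9% against 54.8% at 1121 to 1680 bp and 77.7% against 66.5% at 1680 to 2251 bp. They are furthest from polymerase-only regions (blue, 83.6% to 97.3%) at the narrow end.

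The classes were therefore also compared within 5 width classes crossed with 5 classes of H3K27ac percentile, weighted as in the triple-marked regions. The difference from polymerase-only regions was then -23.2, -19.5 and -20.7 points in animals 5, 7 and 9, a mean of -21.1 ± 1.91 (SD, n = 3). That from H3K4me1-only regions was 6.46, 4.85 and 6.98 points, a mean of 6.10 ± 1.11. Both gave p = 0.25 in the exact permutation test (0.31 adjusted). The first was -10.7 points with 1 region per 100 kb. The second ranged from 2.67 points without animal 7 to 11.1 points with 1 region per 100 kb, and was 3.24 without animal 5, 3.03 with all 3 libraries asked for and 3.38 with summits inside the region. A window reaching 250 bp to each side of the H3K27ac summit, the same in each region, held MBD3 in 62.5% ± 7.59 of triple-marked, 88.2% ± 11.5 of polymerase-only and 42.8% ± 8.17 of H3K4me1-only regions.

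Where MBD3 was present, the classes differed in the strength of its peaks by less than the spread between animals. The median MBD3 fold at triple-marked regions was 8.15, 7.44 and 5.55 in animals 5, 7 and 9, with ranges of 2.80 to 51.0, 2.33 to 56.3 and 2.31 to 51.3. These medians lay at the 72.5, 70.7 and 49.1 percentiles of their lists. Polymerase-only regions had 74.4, 71.9 and 34.8 and H3K4me1-only regions 62.0, 63.7 and 69.7. The differences were 3.71 ± 9.14 and -0.997 ± 17.0 percentile points (SD, n = 3), with p = 1 in the exact permutation test for both. Animal 9 went the other way from the other two in both comparisons, and without it, with the regions chosen again, the differences were -3.10 and 8.53 points.

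The strongest MBD3 peaks at triple-marked regions were several times the median. At chr15:10839258-10841914 the MBD3 fold was 51.0, 56.3 and 39.4 in animals 5, 7 and 9. At chr1:24016475-24017650 it was 42.0, 41.0 and 49.96, and at chr11:95366226-95367258 it was 42.1, 38.6 and 51.3. The next were chr6:55569114-55570752, with 34.9, 42.4 and 35.3, and chr9:26545238-26547909, with 33.7, 37.4 and 38.9. None of these 5 regions had a polymerase peak in animal 5, where 36.3% of all 1254 regions had one. None had a TDG peak, and 95.8% of all 1254 regions had none either.

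Over all triple-marked regions, MBD3 summits lay closer to the polymerase summit than to that of H3K4me1. Among regions with peaks of all 3 in an animal, the median distance from the MBD3 summit to the polymerase summit was 160 bp in animal 5 (297 regions), 143 bp in animal 7 (913) and 154 bp in animal 9 (510). To the H3K4me1 summit it was 960, 925 and 933 bp. The means over animals were 152 ± 8.58 and 939 ± 18.3 bp (SD, n = 3), and the difference was -787 ± 11.2 bp in the same direction in 3 of 3 animals (exact permutation p = 0.25, the smallest possible, 0.31 adjusted). The polymerase and H3K4me1 summits come from lists that chose the regions, so this test does not stand apart from that choice. The MBD3 summit also lay near that of H3K27ac, at medians of 235, 287 and 296 bp in animals 5, 7 and 9. The polymerase summit was the nearer one to MBD3 in 84.2%, 81.3% and 81.0% of regions. The MBD3 summit fell inside a polymerase peak but no H3K4me1 peak in 52.2%, 59.2% and 53.5%. It fell inside an H3K4me1 peak but no polymerase peak in 5.72%, 8.11% and 5.29%. The distances differed with the arrangement. Where H3K4me1 lay beside the polymerase summit, the medians were 136, 131 and 144 bp to polymerase and 1110, 1093 and 1021 bp to H3K4me1. Where an H3K4me1 peak covered it, they were 310, 228 and 240 bp to polymerase and 320, 399 and 412 bp to H3K4me1, the polymerase summit was the nearer one in 48.4%, 61.9% and 59.6%, and 51.6%, 59.7% and 59.6% of MBD3 summits lay inside both peaks.

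MBD3 also differed with the arrangement of the other marks. Where an H3K4me1 peak covered the polymerase summit, MBD3 was present in 41.3%, 55.8% and 35.4% of regions in animals 5, 7 and 9 (44.2% ± 10.5, SD, n = 3). Where H3K4me1 lay beside it, MBD3 was present in 91.7%, 91.4% and 74.9% (86.0% ± 9.64), so the 2 sets did not overlap and lay 41.8 ± 7.72 points apart. This split was made after the values were seen and has no test. The 41.8 points are not a difference at equal width. Regions of both kinds from 1500 to 2000 bp wide had MBD3 in 37.9% against 96.5% in animal 5, 59.5% against 89.3% in animal 7 and 30.6% against 73.2% in animal 9. At 3000 bp or more the 2 kinds lay closer together. There MBD3 was present in 87.5% against 95.95% in animal 5, 89.9% against 97.8% in animal 7 and 75% against 85.8% in animal 9. Under 1000 bp, animal 5 had the other order, with 14 of 61 covered (23.0%) against 2 of 11 beside (18.2%). Regions with a covered summit also had stronger H3K4me1 within their lists, with median percentiles of 83.1, 83.1 and 82.3, against 64.4, 65.1 and 55.7 for regions with H3K4me1 on 1 side. Regions with H3K4me1 on both sides and the summit free had percentiles of 81.5, 80.6 and 76.4, near those of the covered regions, and MBD3 in 90.6%, 93.8% and 85.4% (32, 96 and 48 regions). Their median widths were 2960, 2734 and 2652 bp.

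**Figure D4:**
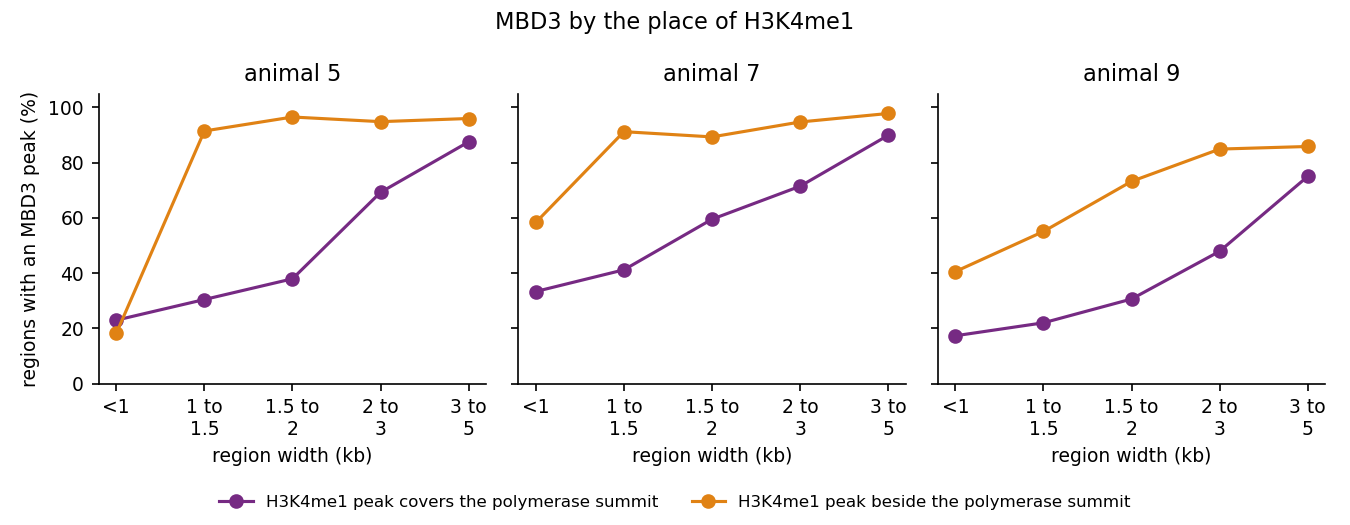
Percentage of triple-marked regions with an MBD3 peak (vertical axis) by width of the region (horizontal axis, kb) in animals 5, 7 and 9, for regions where an H3K4me1 peak covers the polymerase summit (purple) and where it lies beside it (orange). The orange points are higher in each width class of each animal except the narrowest class of animal 5, which rests on 61 and 11 regions.

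MBD3 varied with the thresholds of the rule as well. Triple-marked regions with H3K4me1 in 3 libraries had MBD3 in 66.1% ± 7.98 (688 regions), those with 2 libraries in 76.6% ± 6.72 (566), and regions just outside the rule, with H3K4me1 in 1 library, in 83.7% ± 6.49 (844). For polymerase the order was the reverse, with 73.6% ± 7.39 for 3 libraries (402), 69.5% ± 7.38 for 2 (852) and 62.7% ± 7.95 for 1 (1538). H3K27ac in 3 libraries went with MBD3 in 76.0% ± 7.15 (1139) and in 2 libraries with 19.7% ± 9.70 (115), the latter at a median width of 742 bp. Regions of at least 4500 bp had MBD3 in 92.4% ± 6.01 (48), and those from 5000 to under 5500 bp with the same marks, outside the rule, in 95.7% ± 4.93 (31).

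TDG was rare at triple-marked regions. It was listed at 16 regions in animal 5 (1.28%), 8 in animal 7 (0.638%) and 42 in animal 9 (3.35%), with exact Clopper-Pearson 95% intervals of 0.731 to 2.06%, 0.276 to 1.25% and 2.42 to 4.50%. Of all 51119 regions, 0.147%, 0.123% and 1.02% had a TDG peak in animals 5, 7 and 9. The triple-marked regions thus held 13.6% of the 125 TDG peaks of animal 5, 3.33% of the 240 of animal 7 and 4.60% of the 934 of animal 9. In total 53 regions had TDG in some library, 43 of them in 1 library, 7 in 2 and 3 in all 3 animals, and all 3 is 0.239% against 0.0802% of all 51119 regions.

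TDG was more frequent there than in either class with 1 mark, in 3 of 3 animals. Polymerase-only regions had TDG at 9, 5 and 49 of 3963 (0.227%, 0.126% and 1.24%). H3K4me1-only regions had 0, 0 and 171 of 10760, where the exact Clopper-Pearson 95% interval of 0 reaches 0.0343%, and animal 9 gave 1.59%. The triple-marked share minus the polymerase-only share was 1.05, 0.512 and 2.11 points in animals 5, 7 and 9, a mean of 1.22 ± 0.815 (SD, n = 3). Minus the H3K4me1-only share it was 1.23 ± 0.563 points, and minus all other regions 1.36 ± 0.947. The exact permutation test gave p = 0.25 for each (0.31 adjusted). With regions chosen again without animal 7, the 3 differences were 4.16, 4.07 and 4.61 points. The first was 1.87 without animal 5 and the second 2.04 without animal 9. Over 13 alternatives their lowest values were 0.765 in the window around the H3K27ac summit, 0.783 with widths of at least 1000 bp and 0.860 in that window. TDG was also listed just outside the rule. With polymerase in 1 library, it was at 3, 3 and 53 of 1538 regions in animals 5, 7 and 9. With H3K4me1 in 1 library it was at 5, 4 and 19 of 844. Regions of 5000 bp or more with the same marks had it at 0, 0 and 27 of 259. The triple-marked counts were 16, 8 and 42 of 1254. In animal 9 TDG was thus not particular to triple-marked regions.

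The TDG-bearing regions differed between libraries. In animals 5 and 7 they were mostly narrow, with median widths of 898 and 940 bp, and 9 of 16 and 5 of 8 were under 1000 bp. In animal 9 the median was 2207 bp and 6 of 42 were under 1000 bp. MBD3 was present in the same animal at 5 of 16 regions in animal 5, 6 of 8 in animal 7 and 33 of 42 in animal 9. Of the 42 in animal 9, 34 had TDG in that animal alone. In animal 5, TDG was present at 13 of 155 regions with a covered polymerase summit and at 0 of 254 with H3K4me1 beside it. In animal 7 it was present at 5 of 498 and 2 of 695, and in animal 9 at 15 of 322 and 22 of 529. These splits were chosen after the values were seen and have no test.

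The 3 regions with TDG in each animal were chr6:126916648-126917529, chr9:64643189-64645357 and chr15:68129336-68131717. The TDG fold was 12.5, 20.5 and 15.4 at the first, 8.36, 8.44 and 13.4 at the second and 6.48, 9.84 and 11.1 at the third. The first is 882 bp wide and had MBD3 in animals 5 and 7, with fold values of 4.26 and 5.71, below the medians of those animals. The other two are 2169 and 2382 bp wide and had MBD3 in all 3 animals. None of the 3 had a polymerase peak in animal 5, where 36.3% of all 1254 triple-marked regions had one.

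The 7 regions with TDG in 2 animals were 430 to 1032 bp wide. At chr8:20705877-20706908 TDG had fold values of 8.11 in animal 5 and 5.09 in animal 9. At chr3:126942894-126943891 it had 7.103 in animal 7 and 5.75 in animal 9. Those at chr1:78550364-78551267 had 6.39 in animal 5 and 4.80 in animal 9, and those at chr1:165690969-165691765 had 4.58 in animal 5 and 3.90 in animal 7. A pair of regions on chromosome 7, at 59416828 to 59417521 and 59419526 to 59419955, had TDG in animals 5 and 9, with values of 3.43 and 3.42 at the first and 3.68 and 3.76 at the second. The lowest values were at chr17:13874882-13875336, with 2.03 in animal 5 and 2.68 in animal 7. Polymerase peaks were present in all 3 animals at 6 of these 7 regions, and at 402 of all 1254.

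Triple-marked regions often lay close together. Another one was found within 10 kb of 405 regions (32.3%), against 11.4% for polymerase-only regions among themselves, although those are the larger set. H3K4me1-only regions, which are more numerous still, had 47.1%. Because an overlap of 1 bp was enough, a single polymerase or H3K4me1 peak could count for neighbouring regions. H3K27ac regions of any class were also nearer to triple-marked than to polymerase-only regions. The median gap to the next one was 1580 bp for triple-marked, 9368 bp for polymerase-only and 1694 bp for H3K4me1-only regions. How much of the closeness comes from these 2 features was not tested. The nearest H3K27ac region was itself triple-marked in 19.6% of cases, where 2.45% of all regions are. Regions with polymerase only were next to 9.25% of them and regions with H3K4me1 only next to 17.9%, where they are 7.75% and 21.05% of all regions. The other classes also lay next to their own kind more often than their share. This was so for 18.1% of polymerase-only regions, 35.6% of H3K4me1-only regions and 53.0% of those with neither, the last being 41.25% of all regions. By chromosome, the triple-marked share of H3K27ac regions ran from 1.29% on chromosome 5 to 3.68% on chromosome 16.

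Regions in long runs had less MBD3. The 849 regions with no other within 10 kb had MBD3 in 86.2%, 89.6% and 77.0% in animals 5, 7 and 9. Pairs (118 regions) had 53.4%, 63.6% and 44.9%, runs of 3 or 4 (79 regions) had 44.3%, 46.8% and 29.1%, and the 26 runs of 5 or more (208 regions) had 40.9%, 43.8% and 26.4%. The means were 84.3% ± 6.52 for lone regions and 37.0% ± 9.27 for the longest runs (SD, n = 3), chosen after the values were seen and with no test. Other features moved along with run length. Median width went from 2089 bp for lone regions to 1458 bp in the longest runs, the median H3K27ac percentile from 79.0 to 55.5, and the polymerase percentile from 56.0 to 72.2. The share with a polymerase summit covered by H3K4me1 went from 21.7%, 26.2% and 23.4% to 77.8%, 76.2% and 66.2%. The part of each in the MBD3 difference was not tested. Of the 237 regions with MBD3 in no library, 129 (54.4%) lay in runs of 3 or more, against 63 of the 753 with MBD3 in all 3 (8.37%). TDG was listed in the longest runs once, in animal 9.

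The stretch of 100 kb with most triple-marked regions was on chromosome 15, from 68859053 to 68957861. It held 21 of them among 27 H3K27ac regions, and the other 6 were mixed. MBD3 was present at 5, 10 and 3 of the 21 in animals 5, 7 and 9, and TDG at none. Polymerase peaks were spread along the whole stretch in animals 7 and 9. Counted over the full 100 kb from its start, slightly past the last region, they numbered 56 and 42, and 13 in animal 5. Stretches with 19 regions each followed at chr2:102516351-102612559, chr9:111933506-112031358 and chr12:70288684-70382699. MBD3 was present at 6, 7 and 4 of the 19 on chromosome 2, at 6, 7 and 3 on chromosome 9 and at 9, 10 and 7 on chromosome 12. The 3 had no TDG peak at a triple-marked region in any animal, and 95.8% of all 1254 triple-marked regions had none. The 19 regions on chromosome 12 formed a single run of 94016 bp, the longest in number of regions.

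**Figure D5:**
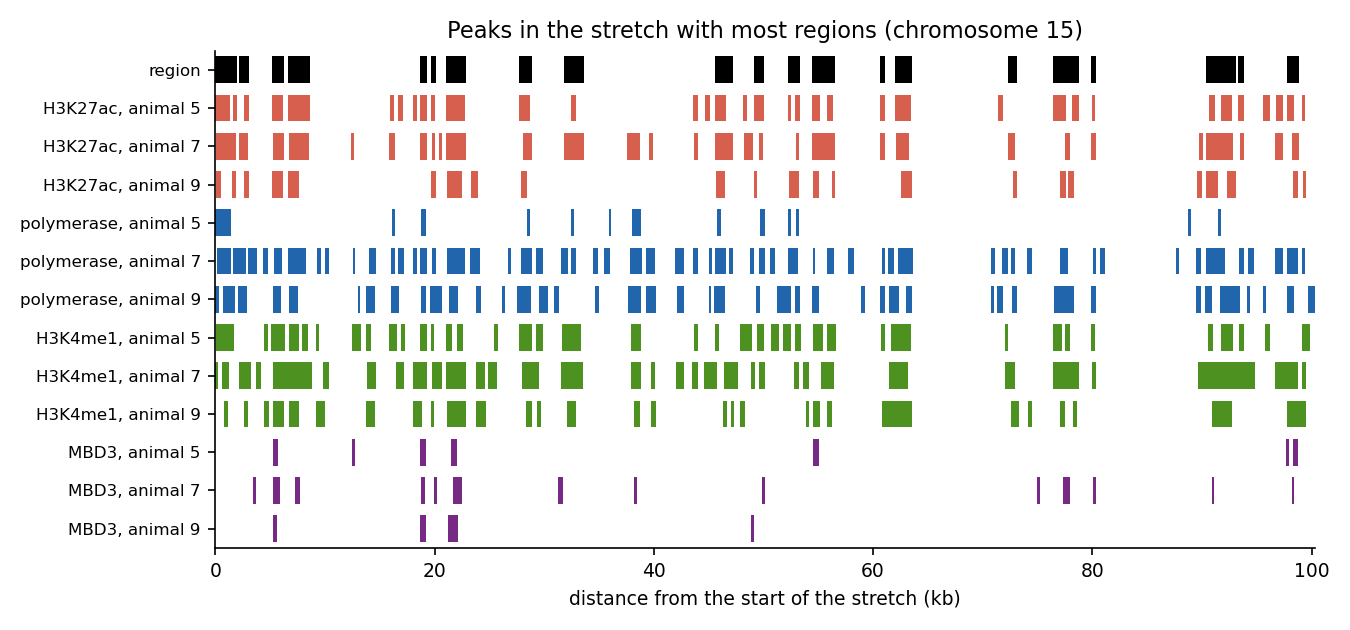
Triple-marked regions (black) and the peaks of H3K27ac, polymerase, H3K4me1 and MBD3 per animal in the stretch on chromosome 15 with most of them. The horizontal axis is the distance from its start in kb, and each block is drawn to scale. Peaks are shown over the full 100 kb, slightly past the last region. The 21 regions are spread over the stretch with polymerase peaks between them in animals 7 and 9, while MBD3 lists 7, 14 and 4 peaks in animals 5, 7 and 9.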

How the data were processed

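Peak lists of 15 chromatin immunoprecipitation libraries from 3 mice were used as deposited, 1 list per library. The submitters' processing notes name MACS2 2.2.7.1, a peak caller, besides Picard 2.18.29, SAMtools 1.16.1, Trim Galore 0.6.7 and bcl2fastq 2.20, and the builds mm39 and hg38. Which aligner and which control were used is not given in the sources used here. For each peak the authors deposited a fold enrichment (a ratio to the local background), a score, the p-value and q-value as −log10, and a summit offset in bp, another kind of number. Read depth is unknown, so the number of peaks in a list limits what can be seen. Names of unplaced contigs carry a doubled prefix in the lists of MBD3 and TDG and not in those of the other antibodies, a processing difference that cannot be told apart from the antibody.

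H3K27ac peaks were merged on chromosomes 1 to 19 with an overlap of at least 1 bp. Classes, shares, summit distances and fold percentiles within a list were computed with scipy 1.17.1, pandas 2.3.3 and numpy 2.4.6 under Python 3.11.15, figures with matplotlib 3.10.9, and the overlap code was tested on simulated data. Classes were compared within animals by a two-sided exact permutation test of sign flips, since both shares come from the same library, and libraries with 1 number come from 1 animal per the labels. The 3 animals are separate replicates. The members and lists were chosen with earlier results of these data known. Regions were named by rule: the 5 highest mean fold percentiles for H3K27ac, PolII_S5P, H3K4me1 and MBD3 with peaks in all 3 animals, those with TDG in 2 or 3 libraries, and the 3 fullest windows of 100 kb, which a tie made 4. Alternatives were a −log10 q of at least 5, summits inside the region, widths under 3000 bp, all 3 libraries, each animal left out, lists of equal length, a window of 250 bp to each side of the summit, and no pairing. Added after seeing the data were classes from each animal's own lists, 1 region per 100 kb, widths of at least 1000 bp and leaving out the polymerase list of animal 5. Gene names, promoter positions, cell type markers and sequences were not used here, because the gene tables are on GRCm38.p6 while the peaks are on mm39, and the tissue label was not checked against markers.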

Additional observations from a re-analysis of the deposited data

Results flagged for a closer look

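MBD3 and TDG took opposite directions against polymerase-only regions. The MBD3 share of triple-marked regions was lower in each animal, by a mean difference of -19.31 percentage points, and the TDG share was higher in each animal, by 1.224 points. The difference between the 2 antibodies was not tested.

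Chromosome X was outside the rule. There 5 of 789 H3K27ac regions met the rest of it (0.634%, exact Clopper-Pearson 95% interval 0.206 to 1.47), against 2.45% on chromosomes 1 to 19, while 88 regions were polymerase-only and 19 H3K4me1-only.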

How the results depend on the processing

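The number of triple-marked regions depended on the peaks asked for. It was 283 with a −log10 q of at least 5, 194 with all 3 libraries, 360 with lists of equal length, 789 with 1 region per 100 kb, and from 208 to 1201 when animals, or the polymerase list of animal 5, were left out in turn, since the remaining 2 libraries then both had to have a peak. The MBD3 and TDG share differences kept their direction under each of the 13 alternatives run for them, and the MBD3 summit distance and the 2 differences within width classes under each of 11. The summit distance difference ranged from -886 to -652 bp, the latter with summits inside the region. The MBD3 share difference ranged from -27.5 to -8.13 points against polymerase-only regions and from 6.04 to 24.7 points against H3K4me1-only regions. The difference in MBD3 fold percentile from polymerase-only regions changed sign with all 3 libraries (-0.552) and ranged from -3.10 to 10.7 when animals were left out. That from H3K4me1-only regions changed sign with summits inside the region (1.81) and with each animal's own lists (3.79), and ranged from -8.28 to 8.53 when animals were left out. The cause was not tested. Without the replicate block, pairing ignored, the MBD3 difference of -19.3 points gave p = 0.1 by exact permutation, as low as 3 against 3 can go, and the pairing changed no call. With 3 animals no result could pass 0.05, which says nothing of stability. A missing peak in the shorter lists may lie under their detection limit.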
